A study of Homo sapiens with 4 samples.

Results

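The Schlafen genes on the array were SLFN5, SLFN11, SLFN12, SLFN12L, SLFN13 and SLFN14. They were found by their gene names among the spots other than controls. Each of the 6 genes had 1 probe, and together they took up 15 of the 43118 spots of an array, 10 of them for SLFN12. They were 6 of the 27193 gene names on the array. The study compared cells with normal PAK1, a kinase that acts downstream of Rac and Cdc42, with cells in which a short hairpin RNA lowers it. All 4 samples were MCF10A.B2 cells, a non-tumorigenic human mammary epithelial line carrying a chimeric form of ErbB2 (Her2) that the crosslinker AP1510 switches on. There were 2 samples named control and 2 of the line with a stably expressed, Tet-inducible shRNA against PAK1 (PAK1 shRNA). All were starved of serum for 3 h and given AP1510 for 15 min, so that both groups carried activated ErbB2. The labels do not say whether the control cells were parental or carried a hairpin, nor how cells of the 2 samples of a group were obtained, so the p-values measure only the spread between these samples, which may be technical.

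Schlafen genes lie in a cluster on chromosome 17 and encode proteins with a shared N-terminal domain that can cut RNA. Several are induced by type I interferons and act against viruses or slow cell growth. SLFN11 blocks stressed replication forks, cuts tRNA and makes cells sensitive to DNA-damaging drugs. SLFN12 cuts a leucine tRNA in cells given drugs that join it to the phosphodiesterase PDE3A, and SLFN13 is an endonuclease of tRNA and rRNA. SLFN5 is a nuclear protein that acts on transcription, and SLFN14 is a ribosome-associated endonuclease in which mutations cause low platelet counts. SLFN12L is a close relative of SLFN12 about which less is known.

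The probes define what was measured, and those of SLFN12, SLFN13 and SLFN12L are shown, with their hg19 positions as the scanner files give them. No annotation of that build was used here, so whether a probe lies in a coding exon or an untranslated region is not stated. All 6 probes lay on chromosome 17 within a span of 281 kb, and only that of SLFN5 was on the plus strand. Capitals would mark bases within an exact stretch of at least 20 bases shared, on either strand, with another probe of the array or with a RefSeq promoter (GRCh38.p14), and these 3 probes held none.
SLFN12 (chr17:33738401-33738460, minus strand): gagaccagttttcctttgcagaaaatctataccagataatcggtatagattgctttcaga
SLFN13 (chr17:33762232-33762291, minus strand): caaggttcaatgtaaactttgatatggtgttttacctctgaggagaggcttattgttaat
SLFN12L (chr17:33802011-33802070, minus strand): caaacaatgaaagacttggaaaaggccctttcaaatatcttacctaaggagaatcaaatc
The search covered the other probes of the array and 35116 promoters. The longest stretch that a member probe shared with another member probe was 8 bases. The transcripts of the members were not searched, so whether a probe also reads another member is not known. The SLFN5 probe, by contrast, shared a stretch of at least 20 bases with 1 other probe and with 13 promoters. The signal of this probe cannot be assigned to SLFN5 alone.

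SLFN5, SLFN12, SLFN13 and SLFN12L were tested, since the scanner called each of these 4 genes well above background throughout 1 group or more. SLFN12 was strongly higher in PAK1 shRNA cells, SLFN13 was lower, and SLFN5 and SLFN12L were higher by smaller amounts, SLFN12L in all but 1 of the alternative settings that gave it a value. SLFN11 and SLFN14 were not well above background on any array. Of the 4 genes tested, 3 were called higher and 1 lower at an adjusted p under 0.05 from limma. SLFN12L entered the test only through the PAK1 shRNA group, so its direction is no independent evidence. Changes were common on these arrays: 30.6% of the 21990 genes tested were called higher, 32% lower and 62.5% in either direction. For all 4 tested members the groups did not overlap, as for 81.6% of all genes with a value on each array. SLFN12 and SLFN13 also changed by at least 2-fold, as 17.9% of all genes did. The calls of SLFN5 and SLFN12L are therefore of a kind shared by most genes measured, and what sets SLFN12 apart is the size of its change.

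**Figure D1:**
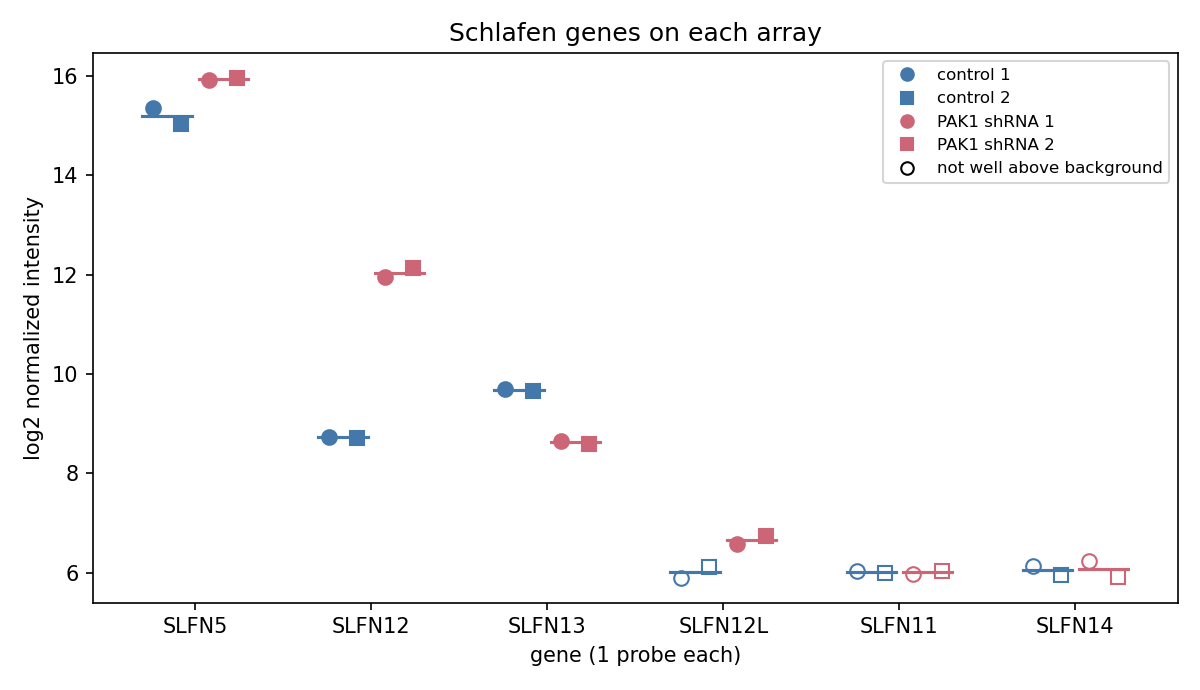
Normalized log2 intensity (vertical axis) of the 6 Schlafen genes, 1 probe each, on the 2 control arrays (blue) and the 2 PAK1 shRNA arrays (red). Lines are group means and open symbols are spots not well above background. SLFN12 lies near 8.7 in control samples and near 12 in PAK1 shRNA samples, SLFN13 moves the other way, and SLFN11 and SLFN14 stay near 6.

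PAK1, the target of the hairpin, was read to check the labels. Its probe (chr11:77034135-77034194) had a log2 normalized intensity of 11.19 and 11.27 in control samples and 10.44 and 10.51 in PAK1 shRNA samples. It was lower on both PAK1 shRNA arrays, by a log2 fold change of -0.76 (standard error 0.076, adjusted p = 0.00018 from limma) and 59.2% of the control level. Of the 7028 genes called lower, 3111 fell by more than PAK1, and 26.9% of all genes tested had a larger change in either direction. A drop of this size was common, so it is a limited check. PAK1 was lower under each alternative processing except 1, with normexp fitted on all spots and median centring, where its log2 fold change was 0.17.

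SLFN12 gave the largest change of the family. Its log2 normalized intensity was 8.74 and 8.71 in control samples and 11.95 and 12.13 in PAK1 shRNA samples. The PAK1 shRNA values lay far above the control values, whose SD was 0.026 (n = 2) against 0.13 (n = 2) for the PAK1 shRNA values. SLFN12 thus had a log2 fold change of 3.31 (standard error 0.087, 95% confidence interval 3.1 to 3.52, Benjamini-Hochberg adjusted p = 9.4e-07 from limma), or 9.94-fold. Of the 6721 genes called higher, 186 rose by more than SLFN12, and 1.33% of all genes tested had a larger change in either direction.

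The array carried the SLFN12 probe in 10 spots, so its change could be read within each array before any correction. The 10 spots ranged from 466.1 to 660.4 on control array 1 and from 357.9 to 485.7 on control array 2. They ranged from 2848 to 3819 on PAK1 shRNA array 1 and from 3298 to 4379 on PAK1 shRNA array 2. No spot of a control array reached the dimmest spot of a PAK1 shRNA array. The coefficient of variation between spots of an array was 12.9% and 10.3% for the control arrays and 10.1% and 10.8% for the PAK1 shRNA arrays. Spots of an array share 1 RNA sample, and were averaged before the test.

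**Figure D2:**
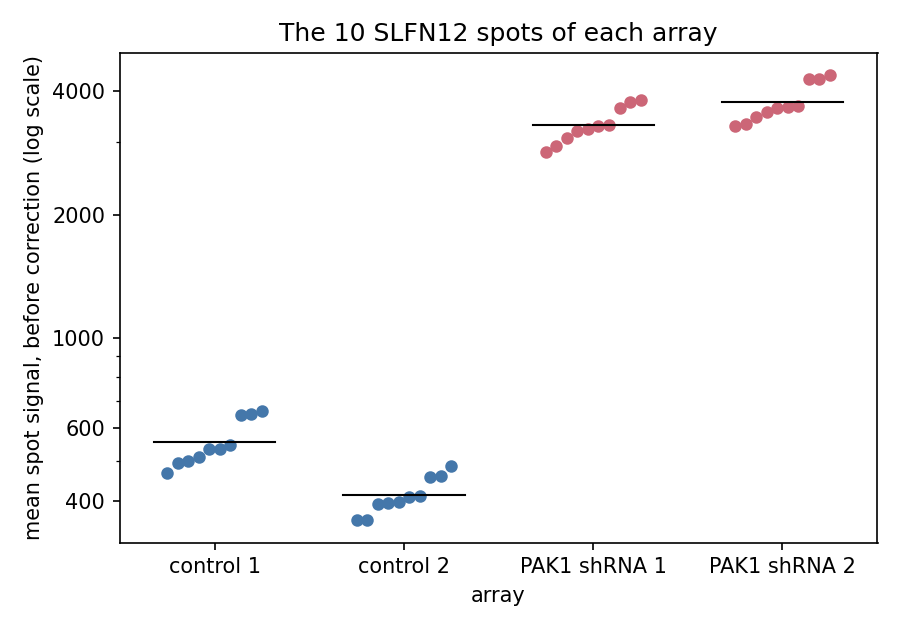
Mean signal of each of the 10 SLFN12 spots (vertical axis, log scale, before background correction) on the 4 arrays, with the mean of each array as a line. The highest control spot, 660.4, lies below the lowest PAK1 shRNA spot, 2848.

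SLFN13 changed the other way. Its log2 normalized intensity was 9.69 and 9.66 in control samples and 8.66 and 8.60 in PAK1 shRNA samples. Both PAK1 shRNA values lay below both control values, and the SDs of the groups were 0.019 and 0.044 (n = 2 each). The log2 fold change was -1.04 (standard error 0.073, 95% confidence interval -1.22 to -0.87, adjusted p = 3.6e-05 from limma), or 48.5% of the control level. Of the 7028 genes called lower, 1833 fell by more than SLFN13, and 16.7% of all genes tested had a larger change in either direction. The log2 fold change of SLFN13 was -0.51 with normexp fitted on all spots and median centring.

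SLFN5 had the brightest of the member probes, with the limit on its sequence given above. The log2 normalized intensity was 15.36 and 15.04 in control samples and 15.91 and 15.96 in PAK1 shRNA samples. The groups did not overlap after normalization, but the uncorrected signals were 52820 and 34460 in control samples and 53900 and 55610 in PAK1 shRNA samples, so that control 1 lay close to PAK1 shRNA 1. The log2 fold change was 0.74 (standard error 0.12, 95% confidence interval 0.46 to 1.01, adjusted p = 0.0014 from limma), or 1.67-fold, and 28% of genes tested had a larger change in either direction. By the methods' t-test it was not called (adjusted p = 0.087), and with normexp fitted on all spots and median centring the log2 fold change was 2.09.

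SLFN12L was not well above background on either control array and was so on both PAK1 shRNA arrays. Its log2 normalized intensity was 5.90 and 6.12 in control samples and 6.57 and 6.74 in PAK1 shRNA samples. Signal above the local background was 1.07 and 7.89 units in control samples against 30.9 and 40.2 units in PAK1 shRNA samples. The control level is therefore a bound, and under the main processing SLFN12L was at least 1.41-fold higher with the shRNA (measured log2 fold change 0.64, standard error 0.10, adjusted p = 0.0017 from limma). The bound sets the PAK1 shRNA mean against the lowest signal of any probe well above background on each control array, or the probe's own where that was higher. SLFN12L entered the test only through the group in which it was higher.
The size of this dim signal depended on the processing, and its direction turned in 1 setting. The log2 fold change was 0.32 with normexp fitted on all spots, 1.32 with a normexp offset of 10, 0.98 under median centring and 2.85 with the scanner's processed signal, and it was -1.28 only where normexp fitted on all spots was joined with median centring. The bound was 1.19-fold with normexp fitted on all spots and 3.3-fold with the processed signal. It was 0.408-fold in the setting that turned the direction, so no rise is bounded there. By the methods' t-test it was not called (adjusted p = 0.082).

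SLFN11 and SLFN14 gave no signal to compare. SLFN11 had log2 normalized intensities of 6.04 and 5.99 in control samples and 5.98 and 6.04 in PAK1 shRNA samples. SLFN14 had 6.14 and 5.95 in control samples and 6.24 and 5.92 in PAK1 shRNA samples. The scanner called none of these spots well above background. The lowest signals of any probe called so were 6.12 to 6.21, depending on the array. SLFN14 passed the lowest called signal of its array on control 1 (6.14) and PAK1 shRNA 1 (6.24), and SLFN11 did so on none. The calls say that neither transcript was detectable through these probes, not that it was absent.

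The ratio of 2 genes within an array does not depend on an overall scaling of that array, although it still carries the background correction and the quantile normalization. Ratios with SLFN12L rest on control values at background. The log2 ratio of SLFN12 to SLFN13 rose by 4.36 from control to PAK1 shRNA arrays, and that of SLFN12 to SLFN12L by 2.67. The ratio of SLFN5 to SLFN12 dropped by 2.58, while those of SLFN5 and of SLFN12L to SLFN13 rose by 1.78 and 1.69. In these 5 of the 6 pairs the groups did not overlap, and the exact permutation test (two-sided) gave p = 0.333, the smallest that 2 against 2 arrays allows. For single genes, the groups did not overlap for 81.6% of those with a value on each array. The share over all pairs of genes was not taken. These ratios restate the fold changes above and add no separate evidence. The ratio of SLFN5 to SLFN12L moved by 0.09 and its groups overlapped (exact permutation p = 1). Neighbouring genes of 1 cluster moved in opposite directions in these cells, SLFN12 up and SLFN13 down, with probes 24 kb apart.

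Schlafen genes are known as interferon-induced, so a list of 40 interferon-stimulated genes was read on the same arrays. Of its 39 genes tested, 39 were called higher and 0 lower, with a median log2 fold change of 4.97 (1.39 to 11.01). Over all genes tested, 30.6% were called higher and 32% lower, with a median of 0.0165. ISG15, a ubiquitin-like modifier, rose from 11.01 and 11.15 to 17.71 and 17.94 in log2 normalized intensity, a log2 fold change of 6.75 (standard error 0.10, adjusted p = 2.7e-07 from limma). IFIT1, which binds foreign RNA, changed by 8, and OAS1, which makes the activator of RNase L, by 4.97. MX1, a GTPase that blocks viruses, changed by 2.24. All 4 were called higher.
Within this list's range, SLFN12 would stand low. Its log2 fold change was above that of 6 of the 39 genes and below that of 33, while SLFN5 and SLFN12L changed by less than every gene of the list tested and SLFN13 went the other way. The list was chosen with earlier results of these data known, and its direction is no independent evidence.

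**Figure D3:**
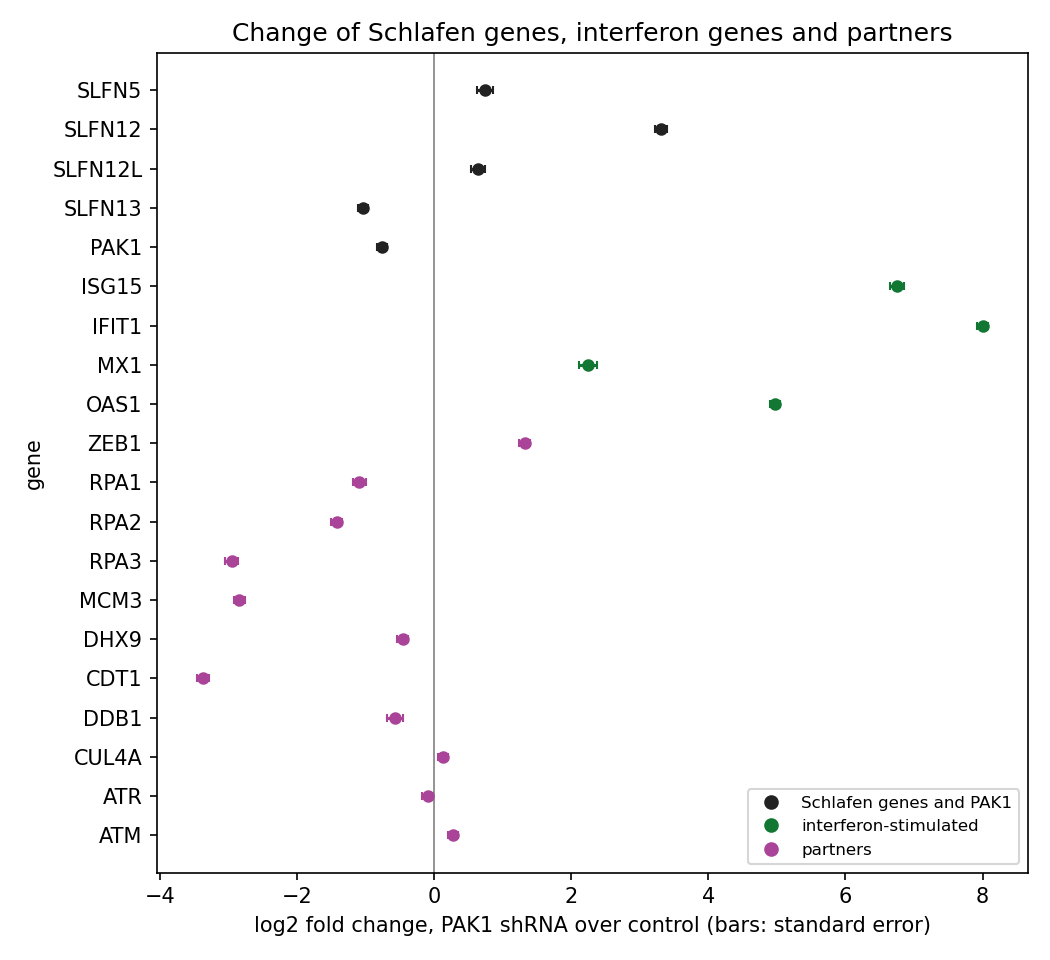
Log2 fold change of PAK1 shRNA over control (horizontal axis, bars are standard errors of the limma fit) for the tested Schlafen genes and PAK1 (black), 4 interferon-stimulated genes (green) and genes whose products work with Schlafen proteins (purple). SLFN12, at 3.31, lies above MX1 at 2.24 and below the other 3 interferon-stimulated genes, while RPA3, MCM3 and CDT1 lie near -3.

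Promoters of SLFN12 and its closest relative SLFN12L, both called higher here, are shown because interferon acts on transcription through short elements there. RefSeq (GRCh38.p14) promoters, 250 bases before to 50 after the start, were at hand for SLFN12, SLFN12L and SLFN11. They were searched on both strands for the interferon-stimulated response element core GAAANNGAAA and the gamma-activated sequence TTCNNNGAA, which are marked in capitals and can overlap each other.
SLFN12 (chr17:35433125-35433424, minus strand): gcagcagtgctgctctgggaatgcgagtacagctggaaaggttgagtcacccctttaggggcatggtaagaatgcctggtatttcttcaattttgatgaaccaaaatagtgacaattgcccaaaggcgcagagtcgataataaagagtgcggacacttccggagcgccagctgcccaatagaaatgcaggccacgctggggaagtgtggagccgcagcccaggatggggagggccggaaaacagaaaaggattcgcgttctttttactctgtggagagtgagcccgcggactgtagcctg
SLFN12L (chr17:35537629-35537928, minus strand): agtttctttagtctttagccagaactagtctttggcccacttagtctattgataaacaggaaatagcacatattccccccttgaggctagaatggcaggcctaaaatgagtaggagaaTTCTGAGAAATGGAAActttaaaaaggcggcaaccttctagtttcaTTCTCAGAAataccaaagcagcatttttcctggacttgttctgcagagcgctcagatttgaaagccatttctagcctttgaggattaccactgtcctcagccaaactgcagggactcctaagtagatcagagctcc
The SLFN12L promoter held 1 match to GAAANNGAAA, whose bases read GAAATGGAAA and began 126 bases before the start, and 2 matches to TTCNNNGAA. The SLFN12 promoter held 0 matches to either, and that of SLFN11 held 1 match to TTCNNNGAA. Of all 35116 promoters, 3.57% held GAAANNGAAA and 7.66% held TTCNNNGAA. A match is a description of letters in this window, and the absence of one says nothing of elements elsewhere.

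Genes whose products work with Schlafen proteins were read for SLFN11, SLFN12 and SLFN5. Of the 10 SLFN11 partners tested, 7 were called lower and 1 higher, with a median log2 fold change of -0.83. Over all genes tested, 32% were called lower and 30.6% higher, with a median of 0.0165. The single-strand DNA binding complex RPA, through which SLFN11 reaches stalled forks, was called lower in all its subunits, with RPA1 at -1.09 (but 0.16 with normexp fitted on all spots and median centring), RPA2 at -1.42 (-0.23 and not called in that setting) and RPA3 at -2.95. RPA3 had log2 normalized intensities of 13.74 and 13.93 in control samples and 10.94 and 10.84 in PAK1 shRNA samples (standard error 0.092, adjusted p = 1.6e-06 from limma), a gap many times the spread of either group. MCM3, a subunit of the replicative helicase, changed by -2.84. CDT1, a licensing factor degraded after SLFN11 acts, changed by -3.37, with only 1 control value because its spot on control 1 was marked as an outlier.
DHX9, a helicase at forks, changed by -0.46 and DDB1, the adaptor of the ligase that degrades CDT1, by -0.57, both called, but they were at 0.64 and 0.73 with normexp fitted on all spots and median centring. DDB1 was not called by the methods' t-test (adjusted p = 0.11). CUL4A, the scaffold of that ligase, was at 0.13 and the checkpoint kinase ATR at -0.09, neither called, although CUL4A was called at 0.27 under cyclic loess and at 1.36 with normexp fitted on all spots and median centring. ATM, another checkpoint kinase, was called at 0.28, and lost the call without control 1 (adjusted p = 0.05), without PAK1 shRNA 2 (adjusted p = 0.09), under median centring (adjusted p = 0.059) and by the methods' t-test (adjusted p = 0.053). SLFN11 itself was at background in both groups.

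For SLFN12, the phosphodiesterases PDE3A and PDE3B, which such drugs join to it, were not tested. Neither met the rule for entry, a signal well above background throughout 1 group or more. Among the partners of SLFN5, ZEB1, a repressor of epithelial genes, was called higher at 1.32 (standard error 0.075, adjusted p = 1.6e-05 from limma). The log2 normalized intensity of ZEB1 was 9.02 and 9.06 in control samples and 10.32 and 10.41 in PAK1 shRNA samples.

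The genes around the cluster moved in both directions, as genes did over the whole array. Within 500 kb of the outermost Schlafen probes lay probes of 28 other genes, of which 21 were tested. Of these, 5 were called higher, 7 lower and 9 not called, with a median log2 fold change of -0.00785. Over all genes tested, 30.6% were called higher and 32% lower, with a median of 0.0165. The nearest gene tested on the SLFN5 side, NLE1, a ribosome assembly factor, was at -0.81 and called lower.
A transcript that the array names XR_016053 had its probe 4438 bases from that of SLFN12 (chr17:33733904-33733963). Its log2 normalized intensity was 9.03 and 9.10 in control samples and 10.49 and 10.58 in PAK1 shRNA samples. It was higher on both PAK1 shRNA arrays, by a log2 fold change of 1.47 (standard error 0.077, adjusted p = 1.1e-05 from limma). A second such transcript, XR_037252, lay between the SLFN12L and SLFN14 probes and was at 0.08, not called. It was named after its values were seen.

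Farther out, the chemokine gene CCL5 had the largest measured change among the neighbours tested. Its log2 normalized intensity was 6.37 and 6.22 in control samples and 13.67 and 14.55 in PAK1 shRNA samples, a measured log2 fold change of 7.81 (standard error 0.26, adjusted p = 2e-06 from limma). It was well above background on only 1 of the 2 control arrays, so it entered the test through the group in which it was high, its size rests on a control level near background, and it has no value where probes must be above background on all 4 arrays. Its log2 fold change was 6.18 with normexp fitted on all spots, 6 with median centring added, 8.84 with an offset of 10 and 10.34 with the processed signal. C17orf66 was called higher at 1.40, but was at 0.81 with normexp fitted on all spots, at 2.45 with the processed signal and at 0.11 and not called with normexp fitted on all spots and median centring. The recombination genes RAD51L3, at -1.44, and RDM1, at -1.42, and AP2B1, a clathrin adaptor subunit, at -1.07, were called lower. RAD51L3 had more than 1 probe. It was called at -0.94 as the mean over probes and at -0.97 with normexp fitted on all spots. AP2B1 was at -0.17 and not called with normexp fitted on all spots and median centring. TAF15, an RNA-binding protein, was called at -1.12, and ranged from -1.61 without control 1 to -0.63 without control 2. It was not called without PAK1 shRNA 2 (adjusted p = 0.055) or with trend and robust eBayes (limma adjusted p = 0.11), and it was at 0.05 with normexp fitted on all spots and median centring. AP2B1, C17orf66 and TAF15 were not called by the methods' t-test (adjusted p = 0.086, 0.091 and 0.22).

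**Figure D4:**
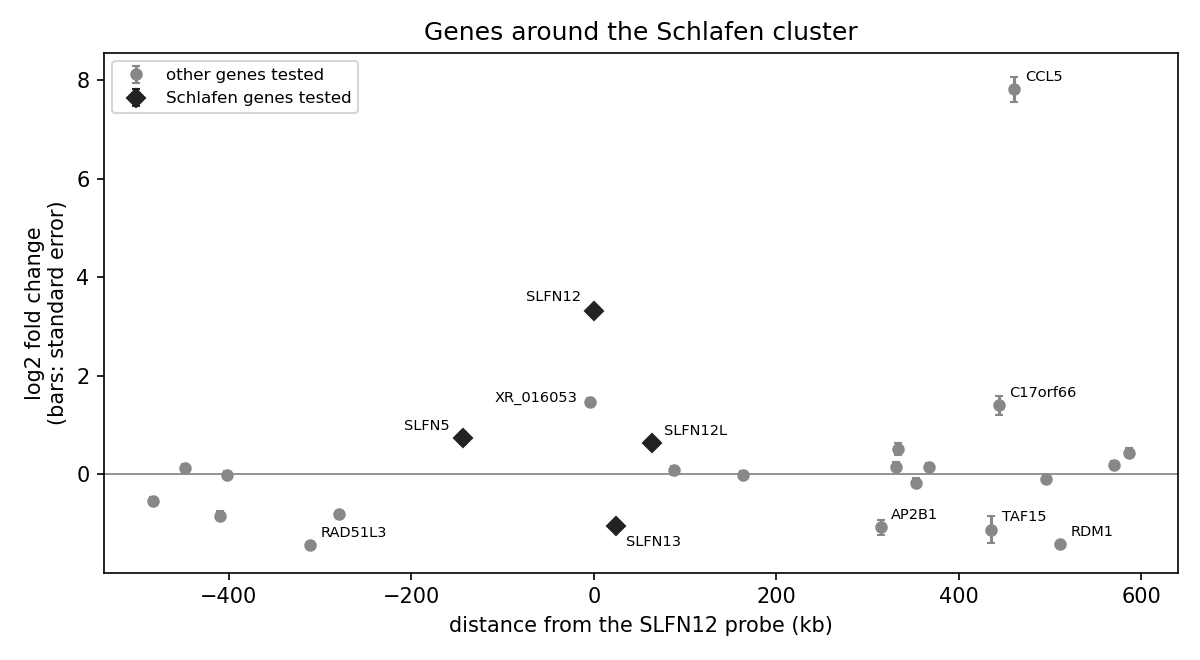
Log2 fold change of PAK1 shRNA over control (vertical axis, bars are standard errors) for the genes tested around the Schlafen cluster, by distance from the SLFN12 probe in kb. Black diamonds are the 4 Schlafen genes tested and grey circles the other 21 genes. SLFN12 at 3.31 and SLFN13 at -1.04 lie side by side, and CCL5 at 7.81 is the highest.

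For each tested member, the genes with the most similar pattern were those with the smallest root mean square difference, over 4 arrays, of log2 values taken from the control mean. For SLFN12 these were CHSY3, a chondroitin synthase (difference 0.0203), and ICAM1, a leukocyte adhesion molecule (0.0327), and only 20 genes lay within 0.1. DIDO1 was close to SLFN13 (0.0125), with 632 genes within 0.1. The nearest to SLFN5 were LOC147804 (0.0182) and SPTAN1 (0.021), and to SLFN12L they were IFNA4 (0.0239) and ACTN3 (0.0251). With 4 arrays in 2 groups, this measure mostly follows the size of the fold change.

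The arrays were alike in the share of probes well above background, between 78.87% and 83.17%. Their local background was not alike. Spots flagged for background numbered 562 (control 1), 604 (control 2), 460 (PAK1 shRNA 1) and 484 (PAK1 shRNA 2). With normexp fitted on all spots, the background mean was -666.3 (control 1), -739.7 (control 2), -10.7 (PAK1 shRNA 1) and -10.23 (PAK1 shRNA 2). Without the flagged spots it lay between -12.06 and -9.195. All 4 arrays lay on 1 slide with the groups at different places, so position on the slide and group cannot be told apart. The number of arrays limits the precision. All 9 basal mammary markers were above background in both groups, 3 called higher and 5 lower, beside 30.6% and 32% of all genes tested. Schlafen genes are also expressed in blood cells, so markers of other cells were read. Of 7 T, B and NK cell markers tested, 1 (CD2, 0.35) was called higher and 0 lower, and their summed intensity was 996 and 1037 in control samples and 1093 and 1155 in PAK1 shRNA samples. Of 6 myeloid markers tested, 4 were called higher, and the summed intensity of the 5 with a value on every array was 3058 and 2768 in control samples and 9181 and 10781 in PAK1 shRNA samples, led by the lysosomal gene CD68 (3.75). The myeloid sum leaves out CD14, the brightest of these 6 markers, which had no value on PAK1 shRNA 2. Its log2 intensity was 14.22 and 14.16 in control samples and 15.42 in PAK1 shRNA 1, a log2 fold change of 1.23. Of 4 megakaryocyte and platelet markers tested, 1 (PF4, 0.46) was called higher. PTPRC, which defines blood cells, was at 0.12 and not called. The part of these markers in the Schlafen results was not tested. Fewer cells expressing a gene and less RNA per cell cannot be told apart in bulk RNA.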

How the data were processed

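The authors deposited scanner output of 1-colour Agilent arrays, with the signal intensity of each spot as Feature Extraction 9.5.3.1 wrote it (submitters' processing notes name version 9.5), not normalized between arrays. They also deposited a table of log2 values for the same arrays, used as an alternative. Coordinates are hg19.

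Mean signal minus median local background was corrected with normexp (offset 50, as the methods name normexp), with parameters fitted without spots whose background was flagged, because such spots moved the fit on both control arrays. Flagged outlier spots and control spots were left out, arrays were quantile normalized and spots of a probe averaged. A probe entered if it was well above background throughout 1 group or more, and each gene was read through its probe of highest mean. Genes were tested with lmFit and eBayes (limma 3.58.1, R 4.3.3) with Benjamini-Hochberg adjustment over 21990 genes, at 0.05. The code was tested on simulated data. The main fit did not pair samples by replicate number.

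The rule named the members, PAK1, 5 interferon genes, all partners, the nearest neighbours and those called at 2-fold, and the 2 most similar genes per member, and some of these, with 1 probe sequence, are not reported here. Members and lists were chosen with earlier results of these data known. Alternatives covered background correction, normalization, filter, flags, probe rule, test, replicate block, deposited values and each array left out. The alternative test was an ordinary Student t-test, whereas for its arrays the paper names moderated t tests from limma. A normexp offset of 10, and normexp on all spots with median centring, were added after seeing the data. The slide could not be a block. Promoters were matched by symbol for 3 of 6 members.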

Additional observations from a re-analysis of the deposited data

How the results depend on the processing

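SLFN12 and SLFN13 kept their direction and were called under every alternative that tests single genes, SLFN12 between 2.78 and 3.55 and SLFN13 between -1.16 and -0.51 on the log2 scale. SLFN5 (0.58 to 2.09) kept its direction. With each array left out in turn, 4 members stayed called, PAK1 was between -0.80 and -0.72, SLFN5 between 0.58 and 0.90, SLFN12 between 3.22 and 3.40, SLFN12L between 0.54 and 0.75, and the interferon-stimulated median between 4.944 and 5.16. That median was 4.601 with normexp fitted on all spots, 5.063 without background correction, 5.419 with the processed signal, 5.106 under cyclic loess, 4.872 with no filter and with probes above background on all 4 arrays, 5.144 with the deposited values and 5.171 with an offset of 10. By the ordinary Student t-test, 11799 genes passed unadjusted and 8658 adjusted (4138 higher, 4520 lower, against 13749, 6721 and 7028 from limma). With it 2 Schlafen genes, 2 Schlafen probes and 7 neighbours were called, while SLFN5 at 0.74 and SLFN12L at 0.64 were not. Requiring 2-fold left 3935 genes (1936 higher, 1999 lower), 2 Schlafen genes, 2 Schlafen probes, 7 partners and 7 neighbours. With normexp fitted on all spots and median centring, 10237 genes were called higher, the interferon-stimulated median was 5.534, and PAK1 (0.17), SLFN12L (-1.28), RPA1 (0.16), DHX9 (0.64), DDB1 (0.73), ATR (1.12) and TAF15 (0.05) changed sign. There normexp put the background mean at -666.3 and -739.7 for the controls, against -10.7 and -10.23 for the PAK1 shRNA arrays. The median of all genes was 0.145 there, 0.139 under median centring and 0.112 with the processed signal. SLFN12L has no value where probes must be above background on all 4 arrays.

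Same-numbered samples did not deviate together (r = 0.012 over 21023 genes), so the numbers do not pair them. With the replicate block 14030 genes and 4 Schlafen genes were called, with SLFN12 at 3.31, and no member changed its call. The deposited log2 values had medians of 9.418, 9.423, 9.404 and 9.397, and the methods name normexp and quantile normalization for the arrays.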
